A study of Mus musculus with 12 samples.

Results

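let-7g-5p and let-7i-5p are a pair of closely related microRNAs of the let-7 family, measured here by 5 probes each in MASMC, primary smooth muscle cells of the mouse aorta, on a one-colour Arraystar mouse small RNA array. Their 10 probes, ASMM10SMR20MIRNA100000000TV1 to ASMM10SMR20MIRNA100000004TV1 for let-7g-5p and ASMM10SMR20MIRNA100000005TV1 to ASMM10SMR20MIRNA100000009TV1 for let-7i-5p, were taken by name from 9709 miRNA probes on the array. The series holds 12 arrays, 3 in each of 4 groups. Cells of the siNT-DMSO and siNT-POVPC groups were transfected with a pool of non-target siRNA, and cells of the siOCT4-DMSO and siOCT4-POVPC groups with blocking siRNA against Oct4. All cells were kept in serum-free medium for the 48 h of transfection, and then received 10 µg/mL POVPC or its vehicle DMSO for 24 h. POVPC is an oxidized phospholipid found in atherosclerotic lesions, and OCT4 is a pluripotency factor that smooth muscle cells can re-express there. The labels do not say whether the 3 arrays of a group came from separate cultures or animals, so the p-values below measure only the spread between these arrays. The level of Oct4 itself and the smooth muscle miRNAs miR-143-3p and miR-145a-5p were not analysed here.

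A let-7 miRNA is cut from a hairpin precursor and loaded into an Argonaute protein, which it guides to matching messenger RNAs through its seed, the stretch from base 2 to base 8. Members of the family that share this seed can act on overlapping sets of messages, which classically include growth and proliferation genes such as Ras genes and Hmga2. The RNA-binding protein LIN28 blocks the maturation of many let-7 precursors in pluripotent cells, and let-7 miRNAs accumulate as cells differentiate. In vascular smooth muscle cells, let-7g has been linked to repression of the oxidized LDL receptor LOX-1.

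The mature sequences are shown first because both miRNAs carry one seed and differ at only 2 of their 22 bases. They were taken from RefSeq (GRCm38.p6), with the seed in capitals.
let-7g-5p: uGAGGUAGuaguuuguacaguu
let-7i-5p: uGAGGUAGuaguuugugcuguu
miR-98-5p: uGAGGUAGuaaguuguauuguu
let-7j: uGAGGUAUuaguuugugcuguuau
Counted from the 5′ end, let-7g-5p and let-7i-5p differ by A17G and A19U. The mature let-7g-5p lies at chr9:106178846-106178867 on the plus strand, within the span of the protein-coding gene Wdr82, and let-7i-5p at chr10:122985698-122985719 on the minus strand, between the protein-coding genes Ppm1h and Mon2. miR-98-5p, from chromosome X, has the same seed, and let-7j, from chromosome 3, differs from let-7i-5p over the first 22 bases by G8U alone, which changes the last base of the seed.

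The probes are complementary to the miRNA from its 3′ end, with a G in front, and differ in how far they reach into the seed. The 18-base let-7i-5p probe covers 3 seed bases, and the 22-base and 23-base probes cover all 7. The 22-base and 19-base probes of each miRNA are shown, with the bases opposite the differing positions in capitals.
let-7g-5p, 22 bases: gaacTgTacaaactactacctc
let-7i-5p, 22 bases: gaacAgCacaaactactacctc
let-7g-5p, 19 bases: gaacTgTacaaactactac
let-7i-5p, 19 bases: gaacAgCacaaactactac
The let-7g-5p probes were 19, 20, 21, 22 and 23 bases long, and the let-7i-5p probes 18, 19, 20, 21 and 22 bases. Each let-7g-5p probe had 2 mismatches to let-7i-5p, and also 2 to let-7a-5p and let-7f-5p. Each let-7i-5p probe had 2 mismatches to let-7g-5p and only 1 to let-7j. By the study's methods, a hairpin in the probe is meant to separate small RNAs this similar, but how much signal related miRNAs shared was not tested. Probes of let-7a-5p to let-7f-5p were not analysed here, because no table used here names them.

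All 10 probes were well above background on all 12 arrays and none was saturated. The 12 arrays fell into 2 scan times, taken as slides: the second scan held the 3 siOCT4-POVPC arrays and replicate 3 of siOCT4-DMSO, and the first scan the other 8 arrays. siOCT4-DMSO replicate 3 stood apart, with a median signal of 24.1 over small RNA probes before normalization, against 5.58 to 8.73 on the other arrays. Between 7704 and 11759 small RNA probes per array were well above background, the highest number on that same array. The 22-base let-7i-5p probe shows how far this reached: its signal before normalization was 1123, 1425 and 1217 in siNT-DMSO and 667, 763 and 1937 in siOCT4-DMSO. The third siOCT4-DMSO array thus lay above the siNT-DMSO arrays before normalization and below them after it. All values below are log2 of the quantile-normalized signal.

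let-7g-5p was lowest in siOCT4-DMSO and close in the POVPC groups, while let-7i-5p was low in both siOCT4 groups. The mean over the 5 let-7g-5p probes was 8.52, 8.29 and 8.42 in siNT-DMSO and 8.65, 8.67 and 8.76 in siNT-POVPC. In OCT4-deficient cells it was 7.80, 7.97 and 8.08 with DMSO and 8.62, 8.65 and 8.69 with POVPC. In falling order, the let-7g-5p means were 8.70 ± 0.06 (SD, n = 3) in siNT-POVPC, 8.65 ± 0.04 in siOCT4-POVPC, 8.41 ± 0.12 in siNT-DMSO and 7.95 ± 0.14 in siOCT4-DMSO. The first 2 groups in this order overlapped, and the other neighbours did not.

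For let-7i-5p the mean over 5 probes was 8.60, 8.45 and 8.61 in siNT-DMSO and 8.59, 8.73 and 8.84 in siNT-POVPC. In OCT4-deficient cells it was 7.56, 7.73 and 7.57 with DMSO and 8.15, 8.26 and 8.25 with POVPC. The order was 8.72 ± 0.13 (SD, n = 3) in siNT-POVPC, 8.55 ± 0.09 in siNT-DMSO, 8.22 ± 0.06 in siOCT4-POVPC and 7.62 ± 0.10 in siOCT4-DMSO. The siNT groups overlapped, and each siOCT4 group lay apart from them and from the other siOCT4 group. Levels of one miRNA were not set against those of the other, since probes differ in brightness.

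**Figure D1:**
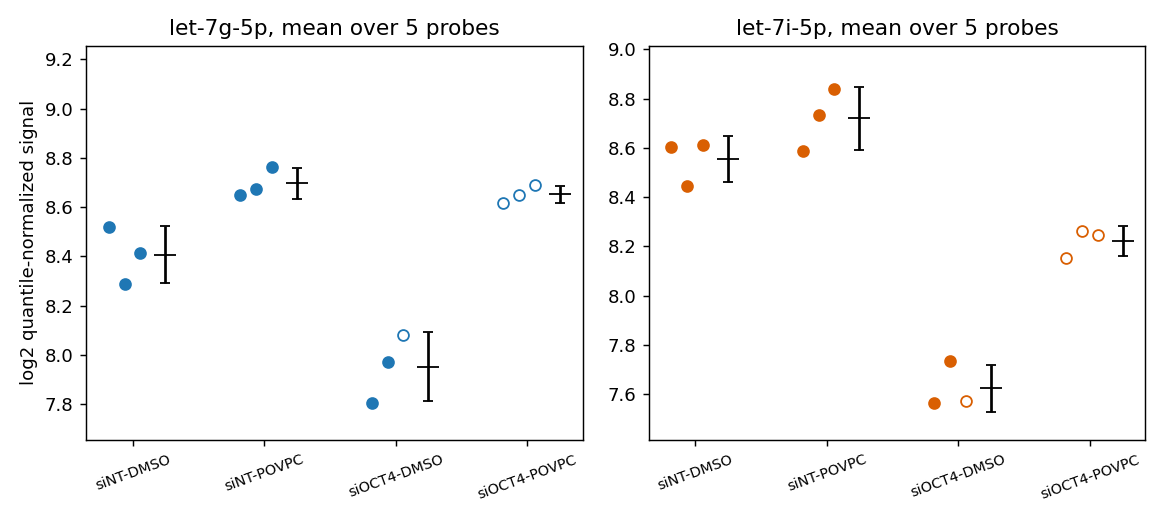
Mean over 5 probes of the log2 quantile-normalized signal of let-7g-5p (left) and let-7i-5p (right) by group, on axes of equal span but different start. Circles are arrays (filled, first scan; open, second scan), and bars give the mean ± SD of 3 arrays. The siOCT4-DMSO arrays are the lowest in both panels, at 7.80 to 8.08 for let-7g-5p and 7.56 to 7.73 for let-7i-5p.

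The effect of OCT4 inactivation was compared in siOCT4-DMSO vs. siNT-DMSO. let-7i-5p was lower after knockdown on all 5 probes, by 0.78 to 1.23 on the log2 scale, and 3 of them passed the test. On the 19-base probe, siNT-DMSO gave 7.74, 7.56 and 7.90 and siOCT4-DMSO 6.52, 6.76 and 6.24, a change of -1.23 ± 0.18 (SE), or 2.34-fold lower, with a limma adjusted p of 0.0162. The 20-base probe gave 10.03, 9.95 and 10.05 against 9.07, 9.20 and 9.09, a change of -0.89 ± 0.14 with a limma adjusted p of 0.0193. The 21-base probe gave 10.23, 10.22 and 10.27 against 9.28, 9.41 and 9.47, a change of -0.85 ± 0.14 with a limma adjusted p of 0.0257. On none of these 3 probes did the groups overlap. In RNA from whole cultures, fewer cells with a miRNA and less of it per cell cannot be told apart.

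The remaining let-7i-5p probes were just outside the threshold. The 22-base probe differed by -0.78 ± 0.16 (SE) with a limma adjusted p of 0.0887, and the 18-base probe by -0.91 ± 0.17 with a limma adjusted p of 0.0546. A probe was called where the limma adjusted p was under 0.05 and the change at least 1.5-fold, and by this rule 1.39% of all 8620 tested miRNA probes were called in this comparison, against 3 of the 10 let-7 probes. Probes of one miRNA overlap in sequence and read the same molecule, so they are not independent and counts of let-7 probes are descriptions. The median change over all tested probes was 0.04.

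let-7g-5p was also lower on all 5 probes after knockdown, by 0.34 to 0.64 on the log2 scale, but none passed the test. Its 20-base probe gave 8.82, 8.53 and 8.67 in siNT-DMSO and 8.17, 8.30 and 8.47 in siOCT4-DMSO, a change of -0.36 ± 0.16 (SE) with a limma adjusted p of 0.587. The 19-base probe had the widest difference, -0.64 ± 0.20, with a limma adjusted p of 0.341. Counting both miRNAs, 9 of 10 probes did not overlap between the groups, against 14.4% of all tested probes. The exception was the 23-base let-7g-5p probe, where siOCT4-DMSO replicate 3 at 9.71 reached the siNT-DMSO values of 9.79, 9.64 and 9.66.

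As a mean over its probes, let-7i-5p differed by -0.93 (95% CI -1.26 to -0.60), which is 1.91-fold lower, and let-7g-5p by -0.45 (95% CI -0.81 to -0.10). With each named miRNA averaged to 1 feature, the limma adjusted p was 0.0578 for let-7i-5p and 0.725 for let-7g-5p, and 0.219% of 8210 features were called, neither of the pair among them. The exact permutation test over arrays gave p = 0.1 for both, the smallest that 3 against 3 arrays allow. The study listed let-7i-5p as lower in this comparison on these same arrays, so its direction is not independent evidence. Within the first scan alone (3 siNT-DMSO arrays against siOCT4-DMSO replicates 1 and 2), let-7i-5p differed by -0.91 and let-7g-5p by -0.52, and the same 3 let-7i-5p probes were called. The number called differed with 1 array left out. It was 0 without replicate 1 or replicate 3 of siNT-DMSO or without replicate 1 of siOCT4-DMSO. It was 1 without replicate 2 of siOCT4-DMSO and 2 without replicate 2 of siNT-DMSO. Calls over all tested probes were not counted in these smaller fits, so these numbers may only follow the loss of an array. The let-7i-5p change itself stayed between -0.99 and -0.90 with any 1 array left out. Normexp background correction subtracts the background measured around each spot, models what remains from the signals and here adds an offset of 50. With it, the let-7i-5p change was -0.61 and that of let-7g-5p -0.29, the 18-base let-7i-5p probe differing by only -0.13. An added offset makes log2 changes of dim probes smaller, and how far it did so here was not tested. With each array scaled to its 75th percentile over all small RNA probes in place of quantile normalization, let-7g-5p differed by -0.69.

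**Figure D2:**
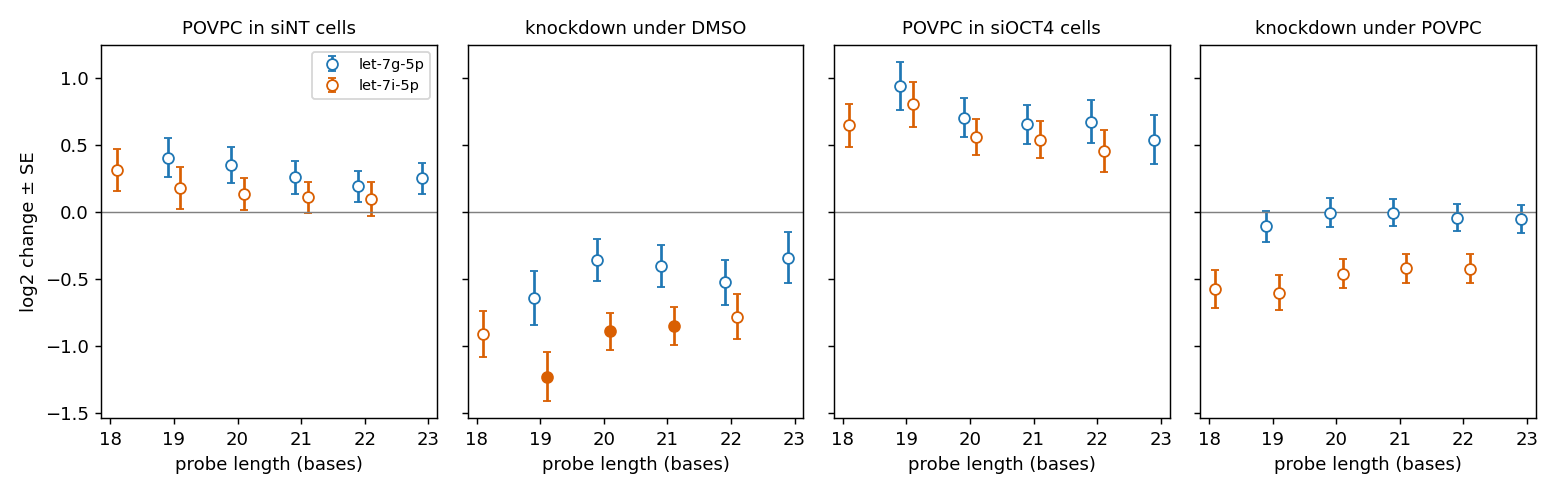
Log2 change ± SE of each probe against its length in bases, in 4 comparisons, each fitted by limma on its 6 arrays. Blue points are let-7g-5p and orange points let-7i-5p, and filled points passed the test. In the knockdown under DMSO all 10 points lie below 0, with 3 let-7i-5p probes filled.

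The effect of POVPC in OCT4-deficient cells was compared in siOCT4-POVPC vs. siOCT4-DMSO. All 10 probes were higher with POVPC, by 0.54 to 0.94 on the log2 scale for let-7g-5p and by 0.45 to 0.80 for let-7i-5p, and none passed the test. The 19-base let-7g-5p probe gave 4.32, 4.68 and 4.06 with DMSO and 5.28, 5.24 and 5.34 with POVPC, a change of 0.94 ± 0.18 (SE) with a limma adjusted p of 0.129. The 20-base let-7g-5p probe gave 8.17, 8.30 and 8.47 against 9.00, 9.00 and 9.06, a change of 0.70 ± 0.14 with a limma adjusted p of 0.14. The 19-base let-7i-5p probe gave 6.52, 6.76 and 6.24 against 7.28, 7.38 and 7.27, a change of 0.80 ± 0.17 with a limma adjusted p of 0.156.

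No probe at all was called by limma in that comparison, 0% of 8620 probes and 0% of 8210 features with named miRNAs averaged. At an unadjusted limma p under 0.05, with no limit on the fold change, there were 1096 probes, including all 10 let-7 probes. At the methods' own unadjusted threshold, which also asks for a 1.5-fold change, 6 of the 10 passed, but none once its p-values were adjusted. How many of all tested probes passed the methods' threshold was not counted, so whether 6 of 10 is unusual cannot be told. On all 10 probes every POVPC array lay above every DMSO array, while 22.4% of all tested probes had groups without overlap. The means over probes differed by 0.70 (95% CI 0.38 to 1.02) for let-7g-5p and 0.60 (95% CI 0.29 to 0.91) for let-7i-5p, both with a limma adjusted p of 0.352 and an exact permutation p of 0.1. The study listed let-7g-5p as higher here on these same arrays, so its direction is not independent evidence.

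The values and calls in that comparison differed between settings. With 75th percentile scaling over all small RNA probes, the change was 1.09 for let-7g-5p and 0.99 for let-7i-5p, and 8 of the 10 probes were called. Over all 8620 tested probes 94 were then called, 91 of them higher and 3 lower, against 0 with quantile normalization. Within the second scan, which held siOCT4-DMSO replicate 3 as the lone DMSO array, the changes were 0.57 for let-7g-5p and 0.65 for let-7i-5p. The 3 probes called there were the 19-base probes of both miRNAs and the 18-base let-7i-5p probe, on each of which that array was the lowest of its group, and its spread was taken from the other arrays. Without that array the changes were 0.76 and 0.57, and none was called. With normexp background correction the change was 0.20 on the dim 19-base let-7g-5p probe, where it had been the widest of the 5, and 0.079 on the 18-base let-7i-5p probe. Their limma adjusted p was 0.0215 and 0.135. The mean of let-7i-5p then differed by 0.37 and that of let-7g-5p by 0.47, with limma adjusted p of 0.0144 and 0.0494. Neither mean reached a 1.5-fold change, so neither was called. The added offset of 50 makes changes of dim probes smaller, but changes of brighter probes were smaller too. How far the offset lowered either was not tested.

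The effect of POVPC in cells with non-target siRNA was compared in siNT-POVPC vs. siNT-DMSO, all 6 arrays being of the first scan. All 10 probes were higher with POVPC, by 0.19 to 0.40 for let-7g-5p and by 0.10 to 0.31 for let-7i-5p, and none passed the test. The 20-base let-7g-5p probe gave 8.82, 8.53 and 8.67 with DMSO and 8.96, 8.97 and 9.14 with POVPC, a change of 0.35 ± 0.13 (SE) with a limma adjusted p of 0.519. On this and the other 4 let-7g-5p probes the groups did not overlap, against 16.3% of all tested probes, whereas they overlapped on all 5 let-7i-5p probes. The means over probes differed by 0.29 (95% CI 0.0031 to 0.57) for let-7g-5p and 0.16 (95% CI -0.13 to 0.46) for let-7i-5p, with limma adjusted p of 0.626 and 0.763. With 75th percentile scaling over all small RNA probes they differed by 0.58 and 0.45, and over probes well above background on all arrays by 0.45 and 0.32, and none of the 10 probes was called by either. The test called 0.22% of all tested probes and 0.0244% of the features with named miRNAs averaged, so calls were rare in this comparison.

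The knockdown was also compared under POVPC, in siOCT4-POVPC vs. siNT-POVPC. let-7i-5p was lower on all 5 probes, by 0.42 to 0.60, and the let-7g-5p probes differed by no more than 0.11. The 19-base let-7i-5p probe gave 7.73, 7.89 and 8.11 in siNT-POVPC and 7.28, 7.38 and 7.27 in siOCT4-POVPC, a change of -0.60 ± 0.13 (SE) with a limma adjusted p of 0.0727. The 22-base let-7i-5p probe gave 10.56, 10.75 and 10.67 against 10.18, 10.26 and 10.28, a change of -0.43 ± 0.11 with a limma adjusted p of 0.138. The 22-base let-7g-5p probe gave 9.77, 9.88 and 9.87 against 9.76, 9.82 and 9.80, a change of -0.04 ± 0.10. The groups overlapped on all 5 let-7g-5p probes and on none of the let-7i-5p probes, against 18.7% of all tested probes without overlap.

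None of the 10 let-7 probes passed the test under POVPC. Over all tested probes 2.67% passed, and 1.06% of the features with named miRNAs averaged. At so low a share, none of 10 is not unusual. The means over probes differed by -0.50 (95% CI -0.77 to -0.23) for let-7i-5p, with a limma adjusted p of 0.162, and by -0.04 (95% CI -0.29 to 0.20) for let-7g-5p, with a limma adjusted p of 0.93. Every siNT-POVPC array belonged to the first scan and every siOCT4-POVPC array to the second, so scan and knockdown cannot be told apart in this pair. With the scan as a block over all 12 arrays, where siOCT4-DMSO replicate 3 alone ties the scans together in 1 group, the changes were -0.42 for let-7i-5p and -0.24 for let-7g-5p, and with 75th percentile scaling over all small RNA probes -0.63 and -0.18.

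The POVPC change in siOCT4 cells was larger than that in siNT cells by 0.41 (95% CI 0.03 to 0.79) for let-7g-5p and by 0.43 (95% CI 0.06 to 0.81) for let-7i-5p. Neither difference passed the interaction test over 12 arrays, with a limma adjusted p of 0.99 for both. No feature of any kind passed it, 0% of probes and 0% of features with named miRNAs averaged, while 438 probes had an unadjusted p under 0.05, 6 of the 10 let-7 probes among them. Without siOCT4-DMSO replicate 3 the differences were 0.48 and 0.41. These 4 comparisons share arrays: siOCT4-DMSO is the control of the POVPC comparison in OCT4-deficient cells and the treated side of the knockdown under DMSO, so a low value there moves both.

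Since a scale shared by all probes of an array cancels in a difference within the array, let-7i-5p minus let-7g-5p was compared between groups, relative to its mean in siNT-DMSO. An array effect that depends on probe length would not cancel, since the probes were 19 to 23 bases long for let-7g-5p and 18 to 22 for let-7i-5p. On siOCT4-DMSO replicate 3 the pair's probes did differ by length, as described below, and the part of this in the difference was not tested. The difference was -0.06, 0.01 and 0.05 in siNT-DMSO and -0.21, -0.09 and -0.07 in siNT-POVPC. In OCT4-deficient cells it was -0.39, -0.39 and -0.66 with DMSO and -0.61, -0.53 and -0.59 with POVPC. All 6 siOCT4 arrays lay below all 6 siNT arrays. Of the siOCT4 arrays, only siOCT4-DMSO replicates 1 and 2 were of the first scan. The study listed let-7i-5p as lower after knockdown and let-7g-5p as higher with POVPC in OCT4-deficient cells, on these same arrays. The sign of their difference in siOCT4 cells is therefore not independent evidence.

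The change of let-7i-5p minus that of let-7g-5p was -0.48 in the knockdown under DMSO and -0.45 in the knockdown under POVPC. The exact permutation test gave p = 0.1 for each, the smallest that 3 against 3 arrays allow, so none of the 4 such tests run could reach 0.05. For POVPC the differences were -0.12 in siNT cells, with an exact permutation p of 0.1, and -0.10 in siOCT4 cells, with an exact permutation p of 0.4. In the knockdown under DMSO the difference was -0.39 within the first scan. In the POVPC comparison of siOCT4 cells it was -0.19 without siOCT4-DMSO replicate 3, and its sign turned to 0.079 within the second scan. The difference under POVPC was -0.18 with the scan as a block over 12 arrays.

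**Figure D3:**
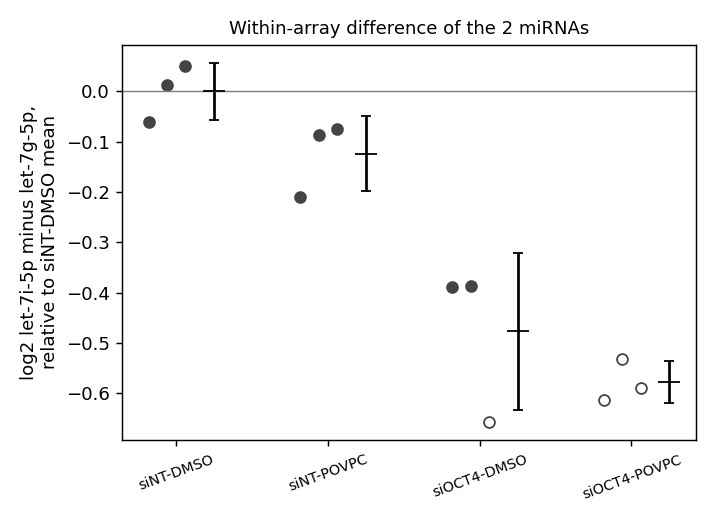
let-7i-5p minus let-7g-5p within each array, as log2 difference of the means over 5 probes relative to the siNT-DMSO mean. Circles are arrays (filled, first scan; open, second scan) and bars the mean ± SD of 3 arrays. The siOCT4 arrays lie between -0.66 and -0.39 and the siNT arrays between -0.21 and 0.05.

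Probes of one miRNA did not all place siOCT4-DMSO replicate 3 alike. For let-7g-5p that array differed from the mean of replicates 1 and 2 by 0.54 on the 23-base probe, 0.38 on the 22-base probe, 0.25 on the 21-base probe, 0.24 on the 20-base probe and -0.44 on the 19-base probe. For let-7i-5p it differed by 0.29 on the 22-base probe, 0.12 on the 21-base probe, -0.04 on the 20-base probe, -0.40 on the 19-base probe and -0.36 on the 18-base probe. In both miRNAs the array was thus the highest of its group on the longest probes and the lowest on the shortest. Over the other named miRNA probes the median difference lay between -0.36 and -0.11 for each length from 18 to 23 bases. This look at probe length was chosen after the values were seen. Its part in the knockdown result and in the difference of let-7i-5p and let-7g-5p within arrays was not tested. Of the 5 let-7i-5p probes, the 20-base and 21-base probes are those on which the 3 siOCT4-DMSO arrays lay closest together, and both were called.

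**Figure D4:**
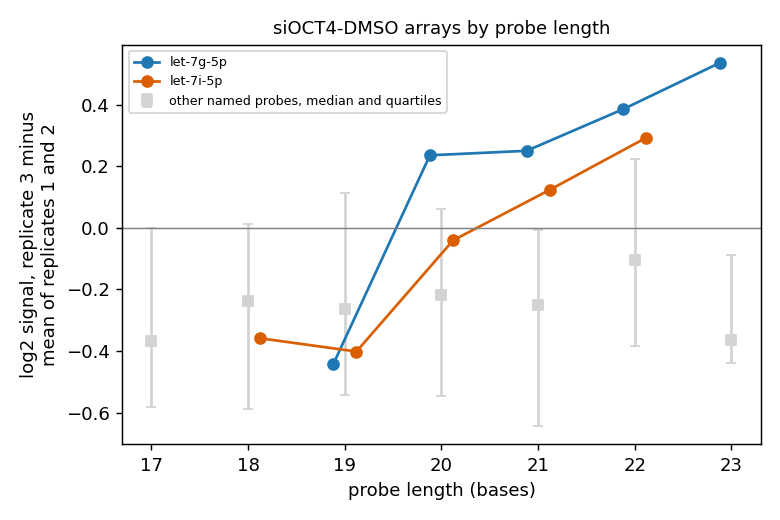
siOCT4-DMSO replicate 3 minus the mean of replicates 1 and 2, as log2 difference against probe length in bases. Lines join the probes of let-7g-5p (blue) and let-7i-5p (orange), and grey squares with bars give the median and quartiles of the other named miRNA probes of that length. The let-7 lines run from -0.44 on the 19-base let-7g-5p probe to 0.54 on its 23-base probe.

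The study's lists name 3 relatives of the pair: miR-98-5p with 5 probes, let-7j with 4, and let-7d-3p, the passenger strand of the let-7d hairpin with no let-7 seed, with 1. After knockdown under DMSO all 10 of their probes were lower, with a median change of -0.68, and 1 was called. That probe, the 24-base let-7j probe ASMM10SMR20MIRNA100005843TV1, changed by -0.86 ± 0.15 (SE) with a limma adjusted p of 0.042. As means over probes, miR-98-5p was 5.06, 4.95 and 5.06 in siNT-DMSO and 4.38, 4.47 and 4.30 in siOCT4-DMSO, and differed by -0.64 ± 0.14 with a limma adjusted p of 0.232. let-7j was dim, at 4.43, 4.29 and 4.35 in siNT-DMSO and 3.74, 3.94 and 3.57 in siOCT4-DMSO. It differed by -0.61 ± 0.16 with a limma adjusted p of 0.392. How much signal it shared with let-7i-5p, whose probes have 1 mismatch to it, was not tested. The dim let-7d-3p probe gave 4.33, 4.33 and 4.16 against 3.71, 3.96 and 2.95, siOCT4-DMSO replicate 3 being the lowest. let-7d-3p differed by -0.73 ± 0.26 with a limma adjusted p of 0.74.

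With POVPC in OCT4-deficient cells, all 10 probes of these relatives were higher, with a median change of 0.79, and none was called. miR-98-5p reached 5.15, 5.27 and 5.14 there, a change of 0.80 ± 0.14 (SE) with a limma adjusted p of 0.278. In the knockdown under POVPC, miR-98-5p differed by -0.16 ± 0.10, let-7j by -0.12 ± 0.12 and let-7d-3p by 0.19 ± 0.15, with limma adjusted p of 0.702, 0.786 and 0.742. These values lie nearer to that of let-7g-5p (-0.04) than to that of let-7i-5p (-0.50). All 5 family members have names here because the study listed them as changed on these arrays, so their shared direction is not independent evidence.

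**Figure D5:**
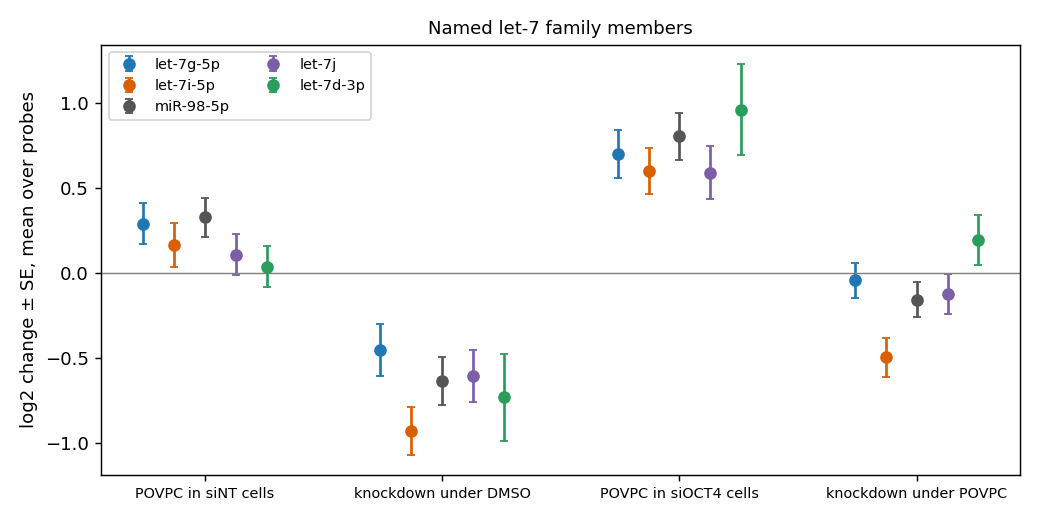
Log2 change ± SE of the 5 named family members, as the mean over their probes (1 probe for let-7d-3p), in 4 comparisons. let-7i-5p has the lowest value of the 5 in both knockdown comparisons, -0.93 under DMSO and -0.50 under POVPC.

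Over the 12 arrays, let-7g-5p and let-7i-5p correlated at Pearson's r = 0.81. Among 101 other named miRNAs with at least 3 tested probes, the patterns most like let-7g-5p were those of miR-26b-5p (r = 0.99), miR-10a-3p (r = 0.92) and miR-101a-3p (r = 0.92). miR-26b-5p averaged 7.71 in siNT-DMSO, 7.97 in siNT-POVPC, 7.21 in siOCT4-DMSO and 8.02 in siOCT4-POVPC, so that like let-7g-5p it was lowest in siOCT4-DMSO and close in the POVPC groups. The patterns most like let-7i-5p were those of miR-669a-3p (r = 0.96), miR-466i-3p (r = 0.94) and miR-27b-3p (r = 0.94). miR-27b-3p averaged 8.15, 8.39, 7.27 and 7.68 in the same order of groups, low in both siOCT4 groups. These correlations are descriptions over arrays that share groups, scans and normalization, and they were not tested.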

How the data were processed

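Total RNA (100 ng) of each sample was dephosphorylated, ligated to Cy3 at its 3′ end and hybridized to the array, per the labels. The intensity values deposited by the authors are processed signals per spot from Agilent Feature Extraction 11.0.1.1, before any scaling across arrays. A second table by the authors, with quantile-normalized log2 values for the whole series, was used as an alternative, and what was done before its normalization is not given in the sources used here. Groups were taken from the source names, with which the titles agree. The description of 9 samples names other conditions and was not followed.

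Unflagged spots of a probe were averaged, quantile-normalized over 12 arrays, floored at 1 and log2-transformed. Of 9709 miRNA probes, 8620 that 3 or more arrays measured well above background were tested with limma 3.58.1 in R 4.3.3 on the 6 arrays of each pair of groups, and on all 12 arrays for the difference of the POVPC effects. Benjamini-Hochberg adjustment ran over all tested probes. Probes were named only from the study's lists of changed miRNAs, which cover 520 probes of 110 miRNAs. For miRNA values, the tested probes of each named miRNA were averaged and unnamed probes kept, giving 8210 features. The exact permutation tests were two-sided. The fits were tested on simulated data. The number of arrays limits the precision. Scaling, background correction, floor, filter, scan, replicate block, single arrays and the methods' t-test were varied. All 10 probes, the named let-7 relatives and the 3 most correlated miRNAs for each of the pair were named by rule. The members, lists and rules were chosen with earlier results of these data known.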

Additional observations from a re-analysis of the deposited data

How the results depend on the processing

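No alternative turned the direction of the let-7g-5p or let-7i-5p change in any of the 5 comparisons. In the knockdown under DMSO the let-7i-5p change, not called before, stayed uncalled in 14 of 20 alternatives. It was called at -0.61 with normexp background correction, -0.94 in the deposited series table and -0.91 with the scan as a block. At -0.93 it was called with probes well above background on all 12 arrays, with all 12 arrays in 1 fit and by the methods' t-test without adjustment. In the POVPC comparison of siOCT4 cells, each of the pair stayed uncalled in 18 of 20 alternatives. There let-7g-5p was called at 1.09 with 75th percentile scaling over all probes and 0.70 by the unadjusted t-test. let-7i-5p was called at 0.65 with the scan as a block and 0.60 by that t-test. The difference between the pair's POVPC changes in siOCT4 cells reversed to 0.079 within the second scan and with the scan as a block. These are the same estimate, since siOCT4-DMSO replicate 3 is in effect the lone DMSO array in both.

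Of the 10 probes, 3 were called in the knockdown under DMSO, against 5 with all 12 arrays in 1 fit, 6 with the scan as a block, 6 by the unadjusted t-test and 1 after its Benjamini-Hochberg adjustment, and 0 to 3 with single arrays left out. In the POVPC comparison of siOCT4 cells 0 were called, against 8 with 75th percentile scaling over all probes and 7 over probes well above background on all arrays. Over all tested probes, 94 and 39 were called with these scalings, against 0 as reported. The let-7 count was 4 with all 12 arrays in 1 fit, 4 with the scan as a block and 6 by the unadjusted t-test. With the block, siOCT4-DMSO replicate 3, which stood apart, is in effect the lone DMSO array. In the knockdown under POVPC 0 were called, against 1 with 75th percentile scaling over all probes, in the deposited series table, with probes well above background on all 12 arrays and by the unadjusted t-test. Over all tested probes, 232 were called with that scaling and 229 in that table, against 230 as reported. Calls over all probes were not counted for the t-tests, the filters, the fits over 12 arrays, the scans or the replicate block. They were not counted with single arrays left out either. The numbers of let-7 probes called there have no share beside them and may only follow calls over all probes. Where these changes have a cause beyond the number of arrays or features fitted, the cause was not tested.

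With the replicate number as a replicate block, 1 probe was called in the knockdown under DMSO and 0 in the other 4 comparisons. Same-numbered arrays did not deviate together throughout (r = -0.24, 0.42 and 0.33 for POVPC in siNT cells, and -0.04, 0.35 and 0.28 for the knockdown under DMSO), so the numbers were not taken as pairs.

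Calls over all miRNA probes ranged over the scalings, background correction, floor and deposited series table from 1 to 33 (19 as reported) for POVPC in siNT cells, 36 to 141 (120) for the knockdown under DMSO, 0 to 94 (0) for POVPC in siOCT4 cells and 50 to 239 (230) for the knockdown under POVPC. The 94 calls with 75th percentile scaling were 91 higher and 3 lower.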
